A study of Mus musculus with 20 samples.

Results

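The genes described here are those whose dependence on Aire differed between the BALB and the B6 strain. For every probe set, the change on loss of Aire in B6 mice (Aire knockout minus Aire wild-type, on the log2 scale) was taken from the same change in BALB mice, so that a difference above 0 means a less negative or more positive change in BALB. The comparison used 14 of the 20 samples of the series, each counted as 1 mouse: 4 BALB Aire knockout (KO), 4 BALB Aire wild-type (WT), 3 B6 Aire KO and 3 B6 Aire WT mice. The other 6 arrays, of NOD mice, entered only the estimate of the spread and 1 later comparison. All mice were males of 3 to 4.5 weeks. The cells were medullary thymic epithelial cells sorted as lacking CD45 and carrying the epithelial antigen G8.8, with intermediate Ly51 and much MHC class II. The labels give neither the way the Aire allele was disrupted nor whether same-numbered mice were littermates. Separate animals are implied by the labels' replicate numbers but not stated, and p-values measure the spread between these samples.

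Aire is a transcriptional regulator of medullary thymic epithelial cells, and it is known for letting these cells make proteins that are otherwise found in organs such as the gut, the liver, the pancreas and the skin. Thymocytes that recognise these proteins too strongly are deleted or turned into regulatory T cells, and loss of Aire leads to autoimmunity. In mice the organs attacked in the absence of Aire are known to depend on the strain. Each gene of this kind is made by a small share of the cells. In arrays of sorted cells, fewer cells making a gene and less RNA per cell cannot be told apart.

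The arrays had medians between 86.3 and 90.9 intensity units, and the number of mice limits the precision. The mature medullary markers averaged 10.67 to 10.93 (log2) in BALB KO, 10.41 to 10.64 in BALB WT, 10.75 to 11.00 in B6 KO and 10.62 to 10.84 in B6 WT mice, and none of the 12 differed in Aire effect between strains by limma (0 at an unadjusted p under 0.05 as well). H2-Ea, an MHC class II gene that B6 mice are known not to express, was 12.11 to 12.46 in BALB KO and 11.48 to 12.05 in BALB WT mice, against 9.18 to 9.46 in B6 KO and 8.96 to 9.49 in B6 WT mice, as the strain labels require. The Aire probe set was not lower in KO mice: it read 11.08, 11.20, 11.01 and 10.53 in BALB KO, 10.48, 10.53, 10.71 and 9.31 in BALB WT, 11.54, 11.48 and 11.56 in B6 KO and 10.81, 10.73 and 10.65 in B6 WT mice. The genotypes overlapped in BALB, and in B6 every KO mouse lay above every WT mouse. Where it lies relative to the disrupted part of the gene is not given, so it does not check the genotype labels. Its change differed by -0.10 between strains (95% interval -0.82 to 0.63). The 3' minus 5' log2 ratio of the Gapdh control, a sign of RNA length, was 2.34 to 2.93 in BALB KO, 2.24 to 3.04 in BALB WT, 1.68 to 2.91 in B6 KO and 1.90 to 3.76 in B6 WT mice. It was lowest in B6 WT mouse 2 and B6 KO mice 2 and 3, whose arrays stood apart from the rest. By their sample codes the arrays form runs, and no run holds WT and KO mice of both strains, so the difference cannot be read within a single run. With the code run as a fixed block 167 probe sets passed in place of the 101 given below, 77 of them among the 101. B6 WT mouse 1 had no such run and was left out of that fit. The B6 WT mice left, 2 and 3, were of the same run. The 13 markers of dendritic cells and macrophages averaged 7.27 to 8.12 in BALB KO, 7.47 to 8.08 in BALB WT, 7.42 to 7.80 in B6 KO and 7.79 to 8.03 in B6 WT mice.

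Most of what Aire loss changed was not shown to differ between the strains with this number of mice, in the fit that does not pair them. Of 45037 probe sets, 101 (0.224%) had an Aire effect that differed past an adjusted p of 0.05, by limma with Benjamini-Hochberg adjustment, and 2224 had an unadjusted p under 0.05. The difference was above 0 in 75 (0.167%) of the 101 and below 0 in 26 (0.0577%). With 1 probe set per gene, 58 of 18193 genes differed (0.319%), 42 above 0 (0.231%) and 16 below 0 (0.0879%). Most of these genes fell on Aire loss in B6: 17 fell further there than in BALB, and another 19 did not pass in BALB.

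The strains shared many of their Aire-dependent probe sets. In BALB KO mice 1920 probe sets were lower and 1159 higher than in BALB WT mice (6.84% called), and in B6 KO mice 2495 were lower and 1385 higher than in B6 WT mice (8.62% called). Of these, 1910 passed in both strains, which is 62.03% of the BALB and 49.23% of the B6 set. The difference between strains passed for 51 of the BALB set and 89 of the B6 set. A probe set past the test in 1 strain alone was therefore seldom shown to differ. The median difference over all probe sets was -0.02 and its median standard error 0.21, and the smallest difference that passed was 0.67. The last probe set inside the threshold had an adjusted p of 0.0493 and the first outside 0.0510.

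**Figure D1:**
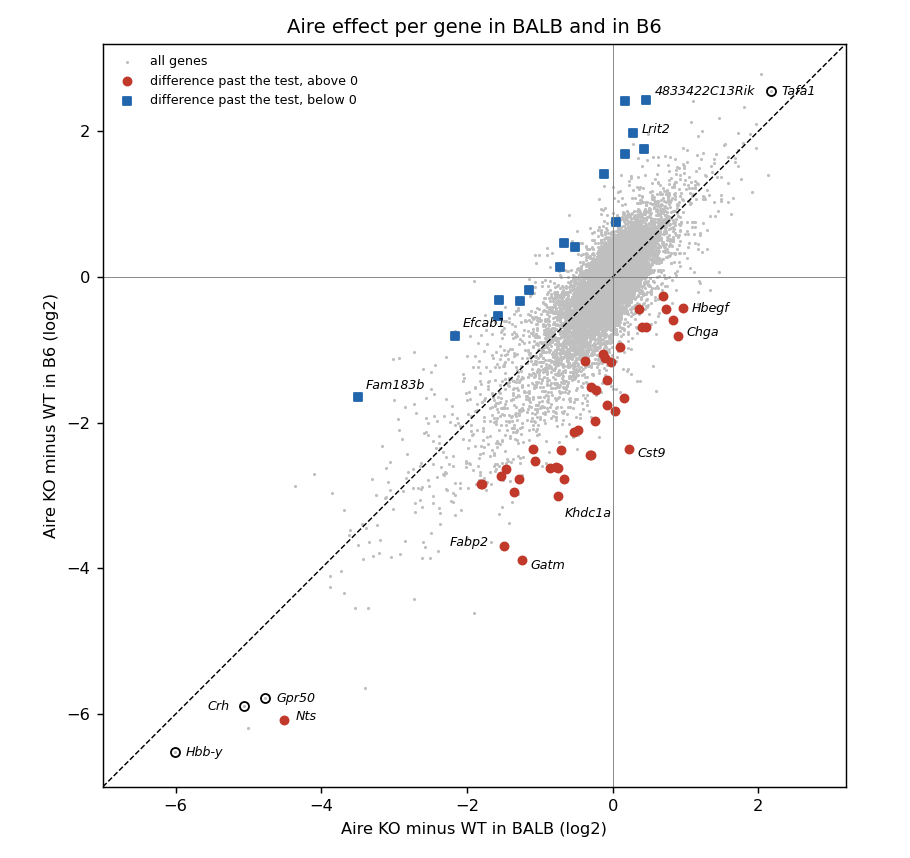
Aire effect of each of 18193 genes (KO minus WT, log2) in BALB mice on the horizontal axis and in B6 mice on the vertical axis, with the dashed line of equal effects. Red circles are the 42 genes whose difference, BALB minus B6, passed above 0 and blue squares the 16 below 0, and open circles name genes with a large effect whose difference did not pass.

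Large falls were found in both strains, and those named here are the largest among genes whose difference did not pass. Hbb-y, an embryonic beta globin, read 3.78, 3.89, 3.54 and 3.61 in BALB KO mice, against 9.80, 10.11, 10.07 and 8.90 in BALB WT mice. In B6 it read 3.53, 3.65 and 3.53 in KO mice, against 10.81, 9.06 and 10.42 in WT mice. KO and WT mice did not overlap in either strain, and the 2 effects differed by 0.52 with an interval of -0.48 to 1.51. Its probe set carries a suffix that marks possible cross-hybridisation, so other globin genes may share in these values. Crh, which encodes corticotropin-releasing hormone, differed by 0.83 (interval -0.13 to 1.79), Mucl2, a mucin-like gene of secretory glands, by 1.18 (-0.01 to 2.36) and Asb4, a SOCS-box protein gene, by 0.38 (-0.45 to 1.21). For Gpr50, an orphan receptor related to the melatonin receptors, the interval of 0.32 to 1.72 lay above 0, yet the adjusted p over all probe sets was above the threshold. Csn1s2a, which encodes a milk casein, came nearest: it was 7.12, 6.74, 7.30 and 7.88 in BALB KO and 10.79, 10.47, 11.00 and 10.39 in BALB WT mice, against 5.36, 5.09 and 5.57 in B6 KO and 11.63, 10.20 and 11.12 in B6 WT mice. Its effects differed by 2.24 ± 0.47 (SE, adjusted p = 0.0586), and the difference passed when B6 WT mouse 2 was left out (2.64, adjusted p = 0.0134). Large rises were found in both strains too, although some of the largest in B6, described later, did not pass in BALB. The rises named here are the largest among genes whose difference did not pass. Ctla4, an inhibitory receptor best known from T cells, averaged 9.01 ± 0.13 in BALB KO and 6.97 ± 0.15 in BALB WT mice (SD, n = 4 each), against 10.53 ± 0.31 in B6 KO and 7.75 ± 0.31 in B6 WT mice (SD, n = 3 each), with a difference of -0.74 that did not pass. The differences of Tafa1, a chemokine-like secreted protein gene, and Ptchd4, a patched-domain gene, were -0.39 and -0.53 and did not pass either.

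The separation of KO and WT mice was counted for the 58 genes whose effects differed. In BALB every KO mouse was below every WT mouse for 26 genes and above for 6, with overlap for 26. Over all genes the shares in BALB were 9.31% below and 6.31% above. In B6 this held for 45 genes below and 9 above, with overlap for 4, and over all genes for 17.5% and 11.2%. Groups of 3 separate by chance more readily than groups of 4, the 58 genes were chosen by the same values, and the counts carry no test. By the tests in each strain, 19 genes fell in B6 and did not pass in BALB, 17 fell in both and further in B6, and 3 rose in BALB and fell in B6. Another 3 rose in BALB and did not pass in B6, 6 rose in B6 and did not pass in BALB, and 1 rose in both and further in B6. Of the rest, 6 fell in BALB without passing in B6, and 3 fell in both strains and further in BALB.

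The strains differed in the knockout mice for some genes and in the wild-type mice for others. The strains differed past the test in KO mice alone for 24 of the 58 genes, in WT mice alone for 20 and in both for 14. Over all genes the strains differed in 14.2% of genes in KO mice and in 7.04% in WT mice. These shares include genes that passed in both genotypes, unlike the counts for KO or WT mice alone. Fabp2, Iyd, Cyp3a11 and Enpep belonged to the first kind: their WT levels did not differ past the test, and their transcripts were higher in BALB KO than in B6 KO mice. Gatm, Cst9, Dcpp3 and Reg3a belonged to the second: BALB WT mice had less of each than B6 WT mice, and the KO mice did not differ past the test. These tests share the arrays of the difference itself and locate it, without adding support to it.

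**Figure D2:**
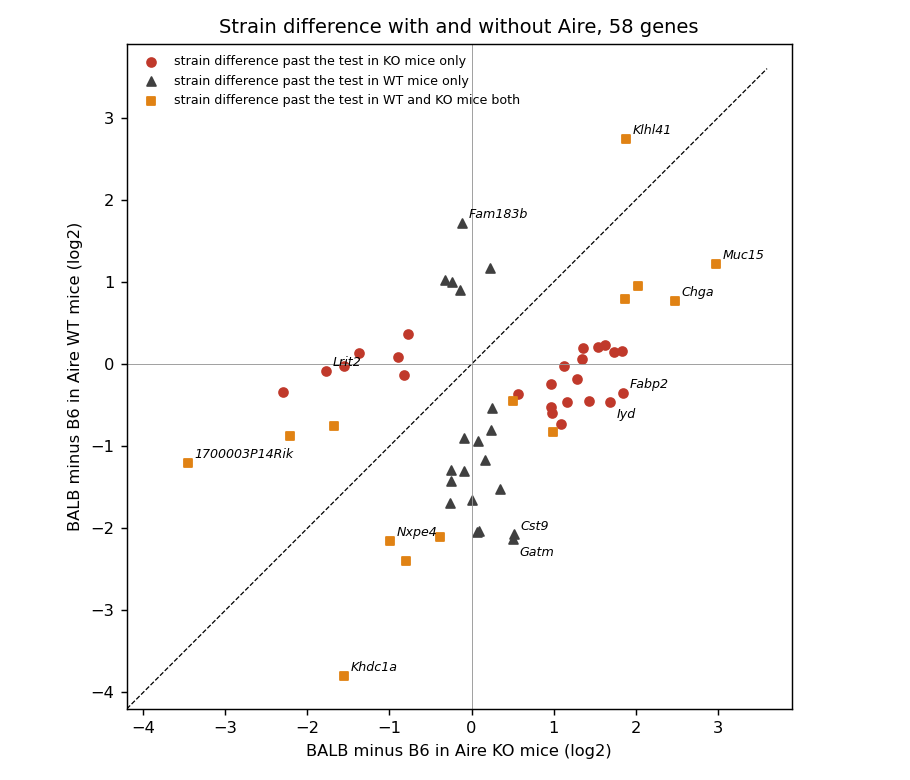
Strain difference (BALB minus B6, log2) in Aire KO mice on the horizontal axis and in Aire WT mice on the vertical axis for the 58 genes whose Aire effect differed, with the dashed line of equal strain differences. Red circles (24 genes) passed in KO mice alone, dark triangles (20) in WT mice alone and orange squares (14) in both; the genes spread along both axes, away from the dashed line.

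Genes of the gut lining and of the liver were among those that fell further in B6. Fabp2, the intestinal fatty acid-binding protein gene, read 7.28, 7.70, 7.51 and 9.04 in BALB KO mice, against 9.13, 9.39, 9.88 and 9.09 in BALB WT mice. In B6 it read 6.0, 6.08 and 6.02 in KO mice, against 9.78, 9.45 and 9.94 in WT mice. All 3 B6 KO mice lay below every BALB KO mouse, and in BALB every KO mouse lay below every WT mouse, KO mouse 4 only just. The effect was -1.49 ± 0.27 in BALB and -3.69 ± 0.32 in B6 (SE), a difference of 2.20 ± 0.42 with an adjusted p of 0.0373. Fabp1, the liver fatty acid-binding protein gene, which the gut also uses, was 8.91, 9.17, 8.30 and 9.23 in BALB KO and 8.88, 8.76, 8.65 and 8.69 in BALB WT mice, against 7.84, 7.68 and 7.91 in B6 KO and 9.07, 9.06 and 10.28 in B6 WT mice. The BALB genotypes overlapped and those of B6 did not (difference 1.82 ± 0.36, adjusted p = 0.0478). Reg3a, which encodes an antimicrobial lectin of the gut, fell in both strains and was tightly measured: 5.05, 4.88, 5.09 and 5.34 in BALB KO and 6.64, 6.62, 6.58 and 6.64 in BALB WT mice, against 5.08, 5.19 and 5.28 in B6 KO and 7.80, 7.96 and 8.01 in B6 WT mice. Its KO levels overlapped between strains while every B6 WT mouse lay above every BALB WT mouse, and the difference was 1.20 ± 0.16 (adjusted p = 0.00293).

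Apoa1, the main apolipoprotein of high-density lipoprotein, was 7.54, 8.07, 7.50 and 8.57 in BALB KO and 8.80, 8.47, 8.73 and 8.82 in BALB WT mice, against 6.66, 7.09 and 7.03 in B6 KO and 9.06, 9.70 and 9.83 in B6 WT mice. The BALB genotypes overlapped in 1 KO mouse, the B6 genotypes did not overlap, and the difference was 1.82 ± 0.32 (adjusted p = 0.0208). Cyp3a11, a drug-metabolising cytochrome P450 of the liver, showed no change past the test in BALB (0.04 ± 0.20): it was 7.72, 7.80, 8.29 and 8.12 in KO and 8.12, 8.48, 7.46 and 7.73 in WT mice. In B6 it was 6.79, 6.39 and 6.48 in KO mice, against 8.18, 8.65 and 8.34 in WT mice, a fall of -1.84 ± 0.23. The difference was 1.88 ± 0.31 (adjusted p = 0.0123). Nts, which encodes the neuropeptide neurotensin of the gut and brain, fell by a large amount in both strains, with -4.51 in BALB and -6.08 in B6. Its KO mice read 6.29, 6.80, 6.55 and 6.38 in BALB and 5.94, 5.22 and 5.42 in B6, and its WT mice 11.10, 11.31, 10.82 and 10.82 in BALB and 11.62, 11.59 and 11.61 in B6. Neither genotype overlapped between strains, and the difference was 1.57 ± 0.31 (adjusted p = 0.0419). Reg3a passed with each of the 14 mice left out in turn. Cyp3a11 did not pass without B6 KO mouse 3 (values 1.71 to 2.06 over all 14), nor Apoa1 without B6 WT mouse 3, B6 KO mouse 3, BALB WT mouse 2 or BALB KO mouse 2 (1.61 to 2.06). Fabp2 passed only without B6 WT 2, BALB WT 3 or BALB KO 1, 3 or 4 (1.81 to 2.40), Fabp1 only without B6 WT 1 or 2 or BALB KO 3 (1.41 to 2.02), and Nts only without B6 KO 1 or BALB WT 2 (1.42 to 1.78).

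A further group fell in B6 and did not pass the test in BALB. Iyd, the iodotyrosine deiodinase with which the thyroid recovers iodide, was 7.39, 7.80, 7.48 and 8.32 in BALB KO and 8.22, 7.94, 7.86 and 8.17 in BALB WT mice, against 6.22, 6.02 and 5.94 in B6 KO and 8.79, 8.26 and 8.47 in B6 WT mice. The B6 KO mice lay below all other mice, and the BALB genotypes overlapped. The effect was -0.30 ± 0.17 in BALB and -2.45 ± 0.20 in B6, a difference of 2.15 ± 0.26 (adjusted p = 0.00106). Cst9, a cystatin family gene, was 6.12, 5.86, 5.93 and 5.91 in BALB KO and 6.06, 5.09, 5.75 and 6.02 in BALB WT mice, against 5.68, 5.40 and 5.24 in B6 KO and 8.13, 7.30 and 7.99 in B6 WT mice. Here the B6 WT mice stood above all others (difference 2.59 ± 0.38, adjusted p = 0.00532). Dcpp3, which encodes a demilune cell and parotid protein of saliva, had the same shape, with 7.17, 6.89, 6.88 and 6.78 in BALB KO and 7.44, 7.19, 7.16 and 7.19 in BALB WT mice, against 7.22, 6.66 and 6.63 in B6 KO and 9.34, 8.77 and 9.73 in B6 WT mice. Its difference was 2.13 ± 0.26 (adjusted p = 0.00106). Akr1c21, a hydroxysteroid dehydrogenase gene singled out after its values were seen because it had the smallest p of the 58, was 5.65 to 5.87 in BALB KO and 5.80 to 6.18 in BALB WT mice, against 6.10 to 6.17 in B6 KO and 7.99 to 8.28 in B6 WT mice (difference 1.73 ± 0.16, adjusted p = 8.27e-05).

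Other genes that fell further in B6 also fell in BALB, apart from Omt2a, whose BALB value of -0.67 did not pass. Gatm, whose enzyme makes the first step of creatine synthesis, had the largest difference of the 58 genes and a wide spread in BALB KO mice, with 6.55, 6.69, 5.15 and 7.07 there and 8.16, 7.60, 7.22 and 7.45 in BALB WT mice. In B6 it was 5.93, 5.83 and 5.83 in KO mice, against 9.90, 9.78 and 9.55 in WT mice. Genotypes did not overlap in either strain, all B6 WT mice lay above all BALB WT mice, and the effects of -1.24 ± 0.34 in BALB and -3.88 ± 0.39 in B6 differed by 2.64 ± 0.51 (adjusted p = 0.0406). Khdc1a, a KH-domain gene of oocytes and early embryos, differed in level between strains in both genotypes: 5.37, 5.43, 5.40 and 5.34 in BALB KO and 6.09, 6.62, 5.98 and 5.87 in BALB WT mice, against 6.58, 7.18 and 7.04 in B6 KO and 9.33, 10.44 and 10.06 in B6 WT mice. Its difference was 2.25 ± 0.30 (adjusted p = 0.0026). Omt2a, an oocyte gene, lay at 3.18 to 3.29 in BALB KO, 3.55 to 4.70 in BALB WT, 3.16 to 3.21 in B6 KO and 5.26 to 6.43 in B6 WT mice (difference 2.10 ± 0.35, adjusted p = 0.0132), so that its KO levels were at the bottom of the scale in both strains, where folds are understated if background remains. Muc15, a membrane mucin gene, was higher in BALB in both genotypes, at 9.50 to 10.29 in BALB KO and 10.42 to 10.97 in BALB WT mice, against 6.44 to 7.30 in B6 KO and 9.18 to 9.75 in B6 WT mice (difference 1.76 ± 0.29, adjusted p = 0.0132). Gstm3, a glutathione transferase gene, was 8.04 to 8.50 in BALB KO and 8.97 to 9.16 in BALB WT mice, against 7.88 to 8.14 in B6 KO and 9.92 to 11.07 in B6 WT mice (difference 1.87 ± 0.27, adjusted p = 0.00532). Enpep encodes the aminopeptidase known as Ly51, the antigen whose intermediate level was part of the sort. It was 7.96, 7.52, 7.60 and 7.23 in BALB KO and 9.27, 8.96, 9.05 and 8.47 in BALB WT mice, against 6.14, 5.58 and 5.79 in B6 KO and 8.88, 8.74 and 8.74 in B6 WT mice (difference 1.59 ± 0.26, adjusted p = 0.0132). Its part in how the sort gate fell in each strain was not tested. The probe sets of Dcpp3, Gstm3 and Apoa1 carry suffixes that mark possible cross-hybridisation with related genes, so their values are uncertain as to the family member. Iyd, Cst9, Dcpp3, Akr1c21, Khdc1a and Gstm3 passed with each of the 14 mice left out. Muc15 did not pass without B6 KO 3 (1.58 to 2.01), Omt2a without B6 WT 3 or B6 KO 3 (1.87 to 2.45) and Enpep without B6 KO 2 or 3 (1.43 to 1.74), and Gatm passed only without BALB WT 1 or BALB KO 3 (2.41 to 3.05).

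**Figure D3:**
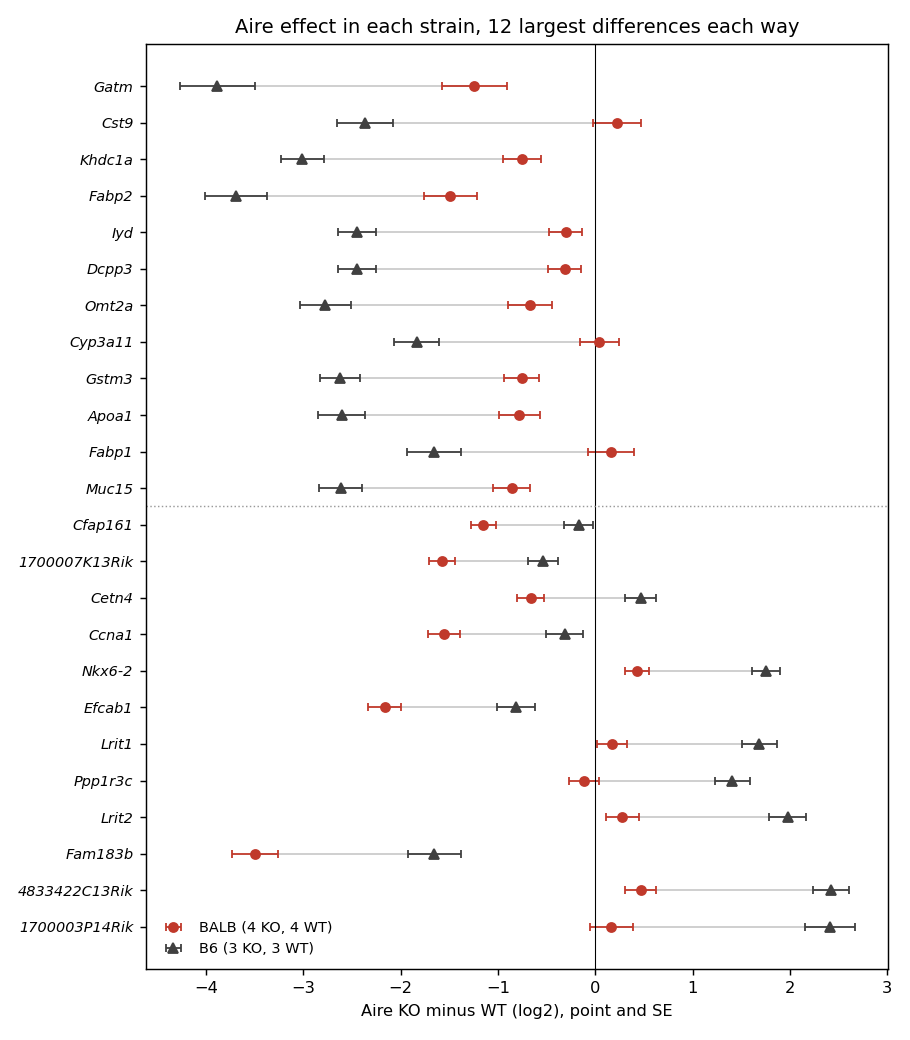
Aire effect (KO minus WT, log2, with its SE) in BALB (red circles, 4 KO and 4 WT mice) and in B6 (dark triangles, 3 KO and 3 WT mice) for the 12 genes with the largest differences above 0 and the 12 below 0. In the upper set the B6 points lie further to the left, from Gatm at -3.88 to Fabp1 at -1.66, and in the lower set the BALB point is the lower one of each pair.

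Chga changed in opposite directions. It encodes chromogranin A, a protein of the secretory granules of neuroendocrine cells, and it was 9.98, 10.21, 10.01 and 9.94 in BALB KO mice, against 9.09, 9.14, 9.22 and 9.10 in BALB WT mice. In B6 it was 7.27, 7.77 and 7.65 in KO mice, against 8.22, 8.35 and 8.55 in WT mice. All BALB KO mice lay above and all B6 KO mice below their WT mice. It rose by 0.90 ± 0.11 in BALB and fell by 0.81 ± 0.13 in B6, a difference of 1.71 ± 0.17 (adjusted p = 0.000107) that passed with each mouse left out (1.56 to 1.81). Both other genes of this kind had smaller changes. Nxpe4, of the neurexophilin and PC-esterase domain family, was 8.87 to 9.14 in BALB KO and 8.10 to 8.60 in BALB WT mice, against 9.92 to 10.05 in B6 KO and 10.25 to 10.63 in B6 WT mice. Its difference of 1.17 ± 0.18 had an adjusted p of 0.00604 and passed with each mouse left out (1.07 to 1.28), whereas that of the predicted gene Gm11716, 0.80 ± 0.15 (adjusted p = 0.0373), did so only without B6 WT 1 or 2, BALB WT 1 or 4 or BALB KO 3 (0.67 to 0.89).

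The 3 genes that rose in BALB without passing in B6 were named to complete this count. Hbegf, a ligand of the EGF receptor, was 9.04, 8.99, 9.40 and 9.57 in BALB KO and 8.06, 8.12, 8.36 and 8.58 in BALB WT mice, against 7.61, 7.63 and 7.64 in B6 KO and 8.03, 8.07 and 8.06 in B6 WT mice. Its B6 value of -0.43 had the opposite sign (adjusted p = 0.0967), and the difference of 1.40 ± 0.20 had an adjusted p of 0.00489. Amdhd1, an enzyme gene of histidine breakdown, differed by 1.43 (adjusted p = 0.0272) and Tubb1, a tubulin gene of platelets, by 0.96 (adjusted p = 0.0406). Hbegf passed with each mouse left out. Amdhd1 lost the test without B6 WT 2 or 3, B6 KO 2 or 3, BALB WT 2 or 3 or BALB KO 2 (1.26 to 1.61), and Tubb1 passed only without B6 WT 2, B6 KO 1, BALB WT 4 or BALB KO 3 (0.87 to 1.05).

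Another set of genes rose on Aire loss in B6 and not past the test in BALB. The transcripts 1700003P14Rik and 4833422C13Rik, which the annotation names by clone only, changed most. 1700003P14Rik was 4.32, 3.95, 3.91 and 3.67 in BALB KO and 3.40, 4.25, 3.89 and 3.65 in BALB WT mice, against 7.27, 7.61 and 7.37 in B6 KO and 4.42, 4.97 and 5.63 in B6 WT mice (difference -2.25 ± 0.34, adjusted p = 0.00604). 4833422C13Rik was 4.21, 3.38, 3.68 and 4.09 in BALB KO and 3.52, 3.26, 3.55 and 3.18 in BALB WT mice, against 5.87, 6.25 and 6.31 in B6 KO and 3.49, 3.82 and 3.84 in B6 WT mice (difference -1.96 ± 0.25, adjusted p = 0.00155). Both BALB genotypes lay near the bottom of the scale for these transcripts, while the B6 KO mice lay above every other mouse. Ppp1r3c, which encodes a subunit that brings protein phosphatase 1 to glycogen, was 7.64, 7.23, 7.36 and 7.67 in BALB KO and 7.57, 7.79, 7.39 and 7.62 in BALB WT mice, against 9.30, 8.84 and 8.95 in B6 KO and 7.91, 7.55 and 7.39 in B6 WT mice (difference -1.53 ± 0.23, adjusted p = 0.00672). Nkx6-2, a homeobox transcription factor of the nervous system, rose in both strains, by 0.43 ± 0.12 in BALB and 1.76 ± 0.14 in B6: it was 5.79 to 6.25 in BALB KO and 5.35 to 5.81 in BALB WT mice, against 7.97 to 8.50 in B6 KO and 6.42 to 6.55 in B6 WT mice (difference -1.33 ± 0.19, adjusted p = 0.00445). The Lrit1 and Lrit2 genes encode leucine-rich repeat membrane proteins of photoreceptors and lie next to each other on chromosome 14. Lrit2 was 3.99, 3.88, 3.81 and 3.72 in BALB KO and 3.94, 3.45, 3.74 and 3.16 in BALB WT mice, against 5.14, 5.72 and 6.02 in B6 KO and 3.72, 3.57 and 3.67 in B6 WT mice (difference -1.70 ± 0.26, adjusted p = 0.00619). Lrit1 was 4.83, 5.09, 4.70 and 4.38 in BALB KO and 4.95, 4.79, 4.39 and 4.20 in BALB WT mice, against 6.27, 5.99 and 6.12 in B6 KO and 4.57, 4.30 and 4.45 in B6 WT mice (difference -1.52 ± 0.24, adjusted p = 0.00896). In both genes the B6 KO mice alone stood above the rest. These 6 genes passed with each of the 14 mice left out. Another, dimmer probe set of Ppp1r3c (mean 5.25 against 7.74) had a difference of only -0.05. Msx3, a homeobox gene named to complete the count of those that rose in B6 without passing in BALB, had a smaller difference of -0.70 ± 0.14 (adjusted p = 0.0406), which passed only without B6 WT 2 or BALB WT 4 (-0.76 to -0.63).

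**Figure D4:**
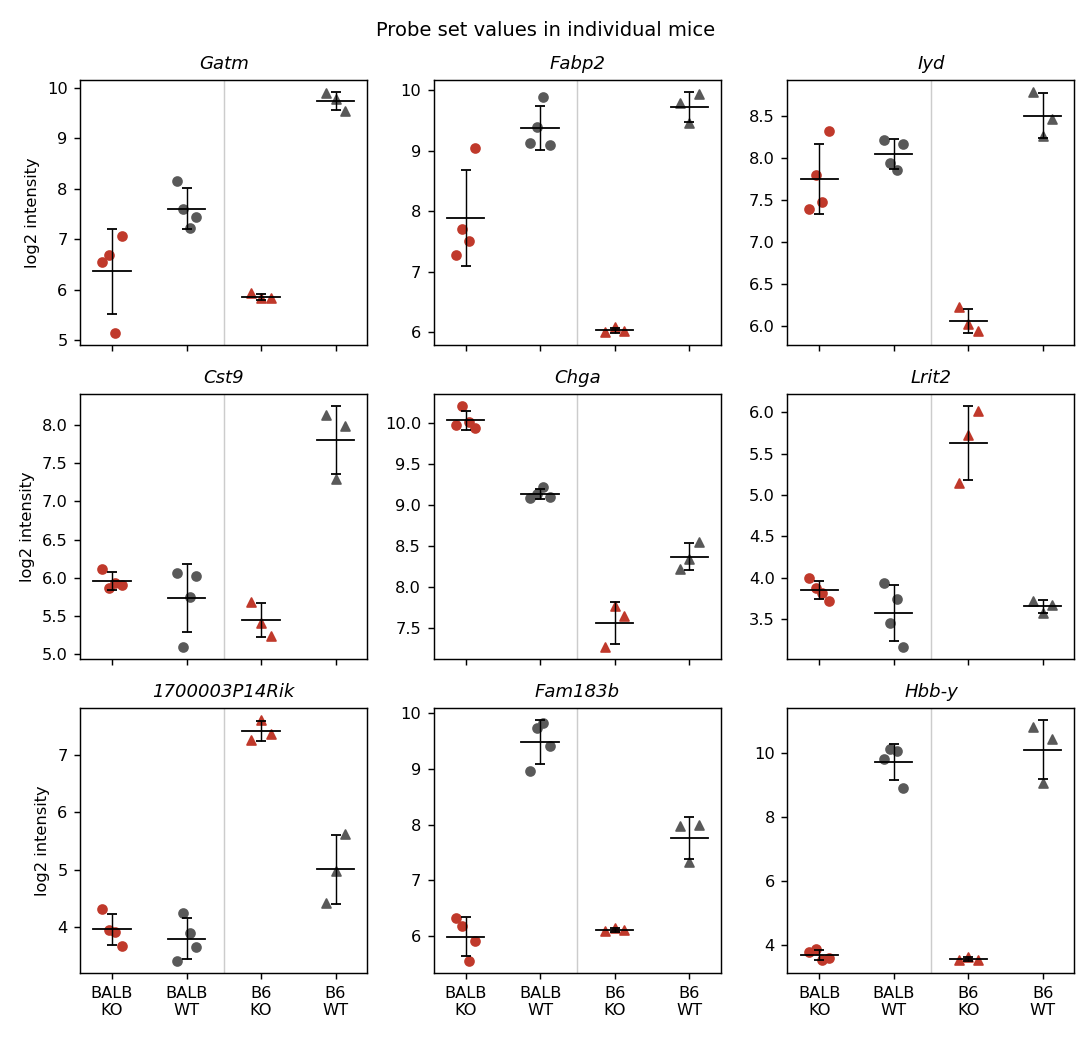
Log2 intensity in each mouse for 9 genes, with BALB KO, BALB WT, B6 KO and B6 WT mice from left to right (circles BALB, triangles B6, red KO, grey WT) and the mean and SD of each group as bars; each panel has its own axis, which does not start at 0. Hbb-y fell in both strains, Iyd was low in B6 KO mice alone, Cst9 high in B6 WT mice alone, and Chga lay above the WT mice in BALB KO mice and below them in B6 KO mice.

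Lrit1 and Lrit2 were the only neighbouring pair among the 58 genes. The 250 bases before the first listed start of these genes, of Iyd and of Chga, the gene that changed in opposite directions, are shown to set out what the reference genome holds upstream of them (RefSeq, GRCm38.p6, which is a C57BL/6J sequence, the BALB sequence not being analysed here). Capitals mark matches to TATAAA or CCAAT on either strand, any overlap being counted in both.
Lrit1 (chr14:37054580-37054829, + strand): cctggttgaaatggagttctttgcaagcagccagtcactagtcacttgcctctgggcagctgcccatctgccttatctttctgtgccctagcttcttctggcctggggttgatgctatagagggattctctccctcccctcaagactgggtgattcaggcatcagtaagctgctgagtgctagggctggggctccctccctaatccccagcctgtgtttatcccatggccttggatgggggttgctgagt
Lrit2 (chr14:37067779-37068028, + strand): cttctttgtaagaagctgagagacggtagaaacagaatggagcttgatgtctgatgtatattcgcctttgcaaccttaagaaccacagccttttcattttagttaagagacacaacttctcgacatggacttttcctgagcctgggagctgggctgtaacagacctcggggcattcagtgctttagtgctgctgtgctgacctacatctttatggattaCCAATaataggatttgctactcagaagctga
Iyd (chr10:3540024-3540273, + strand): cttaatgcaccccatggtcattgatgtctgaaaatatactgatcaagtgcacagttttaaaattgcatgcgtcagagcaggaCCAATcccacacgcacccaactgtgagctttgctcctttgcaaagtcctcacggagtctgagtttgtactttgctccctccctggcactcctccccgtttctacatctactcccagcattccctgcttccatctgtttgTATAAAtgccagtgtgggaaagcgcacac
Chga (chr12:102554691-102554940, + strand): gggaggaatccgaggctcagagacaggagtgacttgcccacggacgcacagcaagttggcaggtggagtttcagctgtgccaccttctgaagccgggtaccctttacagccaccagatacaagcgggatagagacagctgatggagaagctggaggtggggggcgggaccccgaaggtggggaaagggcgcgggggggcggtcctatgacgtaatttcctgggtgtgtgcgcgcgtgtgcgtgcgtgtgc
Neither string was found upstream of Lrit1 or Chga, Lrit2 held 1 CCAAT and Iyd held 1 of each. A match is a string of letters and not a shown binding site. Among 14452 genes with a probe set and a listed promoter, 9.02% held TATAAA and 35.7% CCAAT, with a median of 13 CG dinucleotides. Of the 33 genes with a difference above 0 that had a promoter, 27.3% (9) held TATAAA, 24.2% (8) held CCAAT, and the median was 2 CG. The 371 genes that fell at least 2-fold in both strains had 23.7% with TATAAA, 33.7% with CCAAT and 4 CG at the median. This set also holds some of the 58 genes, among them Gatm. Of the 14 genes with a difference below 0, 7.14% (1) held TATAAA, 71.4% (10) CCAAT, and the median was 6 CG. These shares were not tested.

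Several genes that fell further in BALB have known roles in cilia. Fam183b, a cilium gene, was 6.32, 6.18, 5.54 and 5.90 in BALB KO mice, against 8.96, 9.73, 9.83 and 9.42 in BALB WT mice. In B6 it was 6.08, 6.14 and 6.10 in KO mice, against 7.97, 7.32 and 7.99 in WT mice. The KO mice overlapped between strains, and every BALB WT mouse lay above every B6 WT mouse. The effect was -3.50 ± 0.23 in BALB and -1.65 ± 0.27 in B6, a difference of -1.84 ± 0.36 (adjusted p = 0.0406). Efcab1, which encodes the calcium-binding protein calaxin of the outer dynein arms, was 6.80, 6.25, 6.92 and 6.81 in BALB KO and 8.48, 8.88, 9.14 and 8.94 in BALB WT mice, against 7.31, 7.02 and 6.75 in B6 KO and 7.97, 7.68 and 7.85 in B6 WT mice (difference -1.35 ± 0.26, adjusted p = 0.0379). Cfap161, a cilia and flagella associated protein gene, was 5.53, 5.16, 5.59 and 5.20 in BALB KO and 6.28, 6.86, 6.52 and 6.42 in BALB WT mice, against 6.28, 6.17 and 6.35 in B6 KO and 6.55, 6.5 and 6.27 in B6 WT mice (difference -0.98 ± 0.20, adjusted p = 0.0478). Its B6 genotypes overlapped and its BALB genotypes did not. Cetn4, a centrin gene of basal bodies, fell by 0.66 in BALB and had a value of 0.47 in B6 that did not pass (difference -1.13 ± 0.21, adjusted p = 0.0343). The transcript 1700007K13Rik fell by 1.58 in BALB and by 0.53 in B6 (difference -1.04 ± 0.20, adjusted p = 0.0407). Ccna1, the germ cell cyclin A1 gene, fell by 1.56 in BALB and had a value of -0.32 in B6 (difference -1.24 ± 0.25, adjusted p = 0.0463). None of these 6 held its call against most of the mice left out: Fam183b passed only without BALB WT 1 or BALB KO 1 (-2.02 to -1.63), Efcab1 without B6 KO 3, BALB WT 1 or BALB KO 3 (-1.49 to -1.21), Cfap161 without BALB WT 1 or BALB KO 3 (-1.06 to -0.86), Ccna1 without B6 KO 1 or BALB WT 4 (-1.48 to -1.11), Cetn4 without BALB WT 1 or 2 or BALB KO 1 or 2 (-1.22 to -1.05) and 1700007K13Rik without BALB WT 1 or 4 or BALB KO 1 or 3 (-1.11 to -0.93).

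Gene lists for organs and for thymic cell types were then read, 33 lists with 400 genes measured. The difference passed for 7 of the 400 genes, against 0.319% of all genes. The lists were chosen with earlier results known, and they are described by counts and medians. Over all genes the median difference was 0.001, 50.18% of differences were above 0, and 6.513% had an unadjusted p under 0.05. In the intestine list 10 of 16 genes fell and 2 rose in BALB KO mice (median -1.51), and 11 fell and 0 rose in B6 KO mice (median -2.02), where 7.48% of all genes fell and 2.89% rose in BALB, and 9.27% fell and 3.19% rose in B6. Its differences had a median of 0.75, 13 of 16 were above 0, 3 passed (Fabp2, Fabp1 and Reg3a) and 8 had an unadjusted p under 0.05. Among those that did not pass, Reg3b read -2.73 in BALB and -4.42 in B6, and Tff3, the trefoil peptide of goblet cells, -2.16 and -3.26, whereas the mucin Muc2 read -1.95 and -1.91 and the goblet cell lectin Zg16 -2.64 and -2.60. The members that rose in BALB were Lypd8 (1.06) and Guca2b (0.51), a secreted gut protein that holds back bacteria and the peptide uroguanylin. In the epidermis list 3 of 18 genes fell in BALB (median -0.31) and 11 in B6 (median -1.26). No member's difference passed by limma, 7 had an unadjusted p under 0.05, and 15 of 18 were above 0 with a median of 0.62. The cornified envelope gene Lor (loricrin) read -0.19 in BALB and -2.20 in B6 (difference 2.01, adjusted p = 0.342), the keratins Krt1 and Krt10 read -0.64 and -0.74 in BALB and -2.18 and -2.26 in B6, and Sprr1b -0.09 and -1.38 (difference 1.30, adjusted p = 0.0941). The epidermis list's strain difference had a median of 0.56 in KO mice and -0.14 in WT mice.

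Liver and pancreas genes fell in both strains, where over all genes 7.48% fell in BALB and 9.27% in B6. In the liver list 13 of 18 genes fell in BALB (median -1.23) and 12 in B6 (median -1.83), and the median difference was 0.51, with Apoa1 alone past the test. None of the differences of the fibrinogen genes passed: Fgb read -3.61 in BALB and -3.48 in B6, Fgg -3.53 and -4.54 (adjusted p = 0.501), and Fga -2.72 and -1.03 (adjusted p = 0.22). In the pancreas list 15 of 18 genes fell in each strain (median -1.27 in BALB and -1.62 in B6), Chga being the 1 that rose in BALB, and the median difference was 0.29. Ins2 (insulin), the islet hormone gene Ppy and the glucagon gene Gcg had differences of 0.43, -0.54 and -0.09, and none passed. Of 19 neuropeptide genes, 13 fell in BALB (median -1.01) and 15 in B6 (median -1.68), with a median difference of 0.15 and Nts alone past the test. In the salivary and lacrimal list 9 of 13 fell in BALB and 10 in B6, and no difference passed (4 at an unadjusted p under 0.05). Its members' median difference was 0.34 although the list's median effect was lower in BALB (-1.32) than in B6 (-1.14). Bpifa2, a parotid secretory protein gene, had 1.65 (adjusted p = 0.0574) and Dcpp1 had -1.15 (adjusted p = 0.0871), opposite in sign to its family member Dcpp3.

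Among the lists for the working of the medullary cells, no gene's difference passed the test. Of 14 interferon-induced genes, 7 fell in BALB (median -0.76) and 6 in B6 (median -0.70). Over all genes 7.48% fell in BALB, and 9.27% fell and 3.19% rose in B6. Of 12 chemokine genes, 2 fell in BALB (median -0.36), and 5 fell and 1 rose in B6 (median -0.73). Both lists had 0 differences past the test by limma, and 2 and 3 at an unadjusted p under 0.05. Over all genes these shares were 0.319% and 6.513%. Genes of antigen presentation (median difference -0.04), the cell cycle (0.02), Aire's partners (-0.11) and the RANK and NF-kB pathway (-0.12) had 0 past the test and 0 at an unadjusted p under 0.05. Among the lists of thymic and contaminating cell types the only member past the test was Enpep. The 8 B cell markers had a median difference of -0.05 and the 13 dendritic cell and macrophage markers one of 0.20, with 0 past the test and 1 and 0 at an unadjusted p under 0.05.

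**Figure D5:**
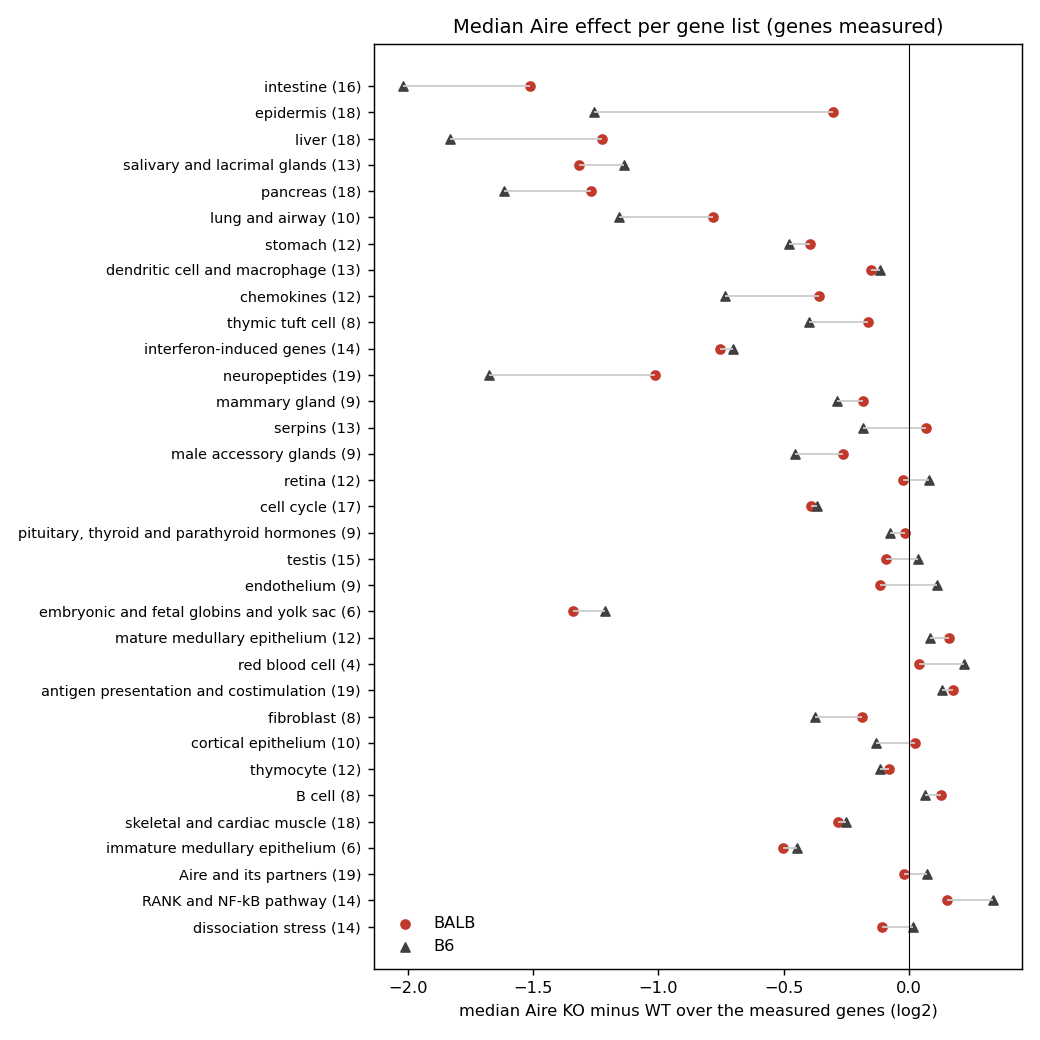
Median Aire effect (KO minus WT, log2) over the measured genes of each of 33 lists in BALB (red circles) and in B6 (dark triangles), with the number of genes in brackets, ordered by the median difference. The widest gap is that of the epidermis list, with -0.31 in BALB and -1.26 in B6.

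The size of the Aire effect over a wide set was compared with genes chosen in neither strain. In NOD mice, 484 genes fell at least 2-fold past the test. Their median effect was -1.43 in BALB and -1.82 in B6, and the fall was larger in B6 for 372 of them. The mean over these genes was 6.20 to 6.42 in BALB KO and 7.61 to 7.96 in BALB WT mice, against 6.07 to 6.14 in B6 KO and 7.95 to 8.13 in B6 WT mice, so that the KO groups of the strains did not overlap and the WT groups overlapped at their edges. The difference passed above 0 for 18 of these genes and below 0 for 1, against 0.231% and 0.0879% of all genes. A larger fall in B6 is a difference above 0, which 50.18% of all genes had. Another 103 genes rose at least 2-fold in NOD. Their median effect was 0.85 in BALB and 1.07 in B6, the rise was larger in B6 for 74, and the difference passed above 0 for 0 and below 0 for 2. For the 58 genes, the NOD effect lay nearer to the BALB effect for 31 and nearer to the B6 effect for 27. Chga rose in NOD (0.48, adjusted p = 0.0416), as it did in BALB, while Lrit1 and Lrit2 rose there by 1.58 and 2.22, as they did in B6. Reg3a fell by 2.25 and Fabp2 by 3.22 in NOD, nearer to B6.

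The genome around Aire was read as well, because a disrupted allele carried into another strain can bring neighbouring DNA with it. Among the 100 measured genes nearest to Aire, 50 on each side, the difference passed for 0, against 0.319% of all genes. With so low a share, a count of 0 among 100 genes cannot show whether such DNA was carried. The BALB effect passed for 6 and the B6 effect for 7 of the 100, against 10.36% and 12.46% of all genes. Of the 58 genes, 15 had further probe sets. Of those 27 probe sets 24 had a difference of the same sign, 2 of them past the test, and 3 had the opposite sign, none past the test. Those of the same sign include values near 0, such as -0.05 for Ppp1r3c. The other probe sets of Efcab1 had differences of 0.035 and -1.73.

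The counts depended on which mice were included. With each mouse left out in turn, 19 of the 58 genes passed every time. The number of probe sets past the test, 101 with all mice, fell to 36 without B6 KO mouse 3 and 44 without B6 WT mouse 3. It was 46 without B6 KO mouse 2, 59 without BALB KO mouse 2 and 59 without BALB WT mouse 3. Leaving out BALB WT mouse 2 gave 62, and leaving out BALB KO mouse 4 gave 64. Without the 3 B6 arrays that stood apart, B6 KO mouse 1 was the only B6 KO array left, so differences alone are given. Among named genes these were Khdc1a 2.36, Omt2a 2.43, Iyd 2.11, Gstm3 2.04, Chga 2.02, Dcpp3 2.0, Muc15 1.96 and Akr1c21 1.74. With the Gapdh ratio as a covariate 152 probe sets passed, 94 of them among the 101, and with the mean of the dendritic cell and macrophage markers as a covariate 104 passed, 92 of them among the 101.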

How the data were processed

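Gene expression was measured with mouse Affymetrix arrays in sorted medullary thymic epithelial cells. Per the labels' protocols, RNA was isolated with Trizol and amplified as antisense RNA before biotin labelling, which can weight 3' ends. The deposited values are 1 linear intensity per probe set and array, made with RMA per the submitters' processing notes. Not given in the sources used here are its settings and the set of arrays normalized together.

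Intensities were taken to log2, with no offset. Of 45101 probe sets, 64 controls were left out and 45037 tested; 34945 had 1 gene symbol, 932 several and 9160 none. For each of 18193 genes, the probe set of highest mean level (20 arrays) was used. The 6 group means were fitted with limma 3.58.1 in R 4.3.3 (lmFit, contrasts.fit and eBayes, 14 residual degrees of freedom), and p-values were adjusted by Benjamini-Hochberg over all these probe sets (threshold 0.05). Intervals are 95% ones. The fit was run on simulated data with independent noise in each array, which leaves out any link between arrays by pair or run.

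The genes named are Aire, the 12 most negative and 12 most positive differences that passed, up to 6 genes past the test in both strains with opposite signs, the 6 largest falls and 3 largest rises among genes whose difference did not pass, up to 4 members per list that passed, and H2-Ea. Others are said to be chosen after their values were seen, or complete a count or describe a list. The comparison, the gene lists and these rules were chosen with earlier results of these data known. List members that did not pass, such as Lor, Reg3b, Fga and Bpifa2, were picked to describe their lists after their values were seen.

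Same-numbered KO and WT mice deviated together from their group means in all 4 BALB pairs (r from 0.456 to 0.658) but not in all 3 B6 pairs (0.781, 0.719 and -0.134), so the numbers were not taken as pairs. Alternatives covered scaling, filters, variance models, blocks, covariates and leaving out each mouse. Promoters are the 250 bases before the first listed start in RefSeq (GRCm38.p6).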

Additional observations from a re-analysis of the deposited data

Results flagged for a closer look

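The Aire effect differed between BALB and B6 past the test for 101 probe sets, by the test of the difference itself, and this is what drew attention to each gene that follows. Among the genes named, the differences above 0 were 2.64 for Gatm, 2.59 for Cst9, 2.25 for Khdc1a, 2.20 for Fabp2, 2.15 for Iyd, 2.13 for Dcpp3 and 2.10 for Omt2a. Those of Cyp3a11 (1.88), Gstm3 (1.87), Apoa1 (1.82), Fabp1 (1.82), Muc15 (1.76), Chga (1.71), Enpep (1.59), Nts (1.57), Reg3a (1.20), Nxpe4 (1.17) and Gm11716 (0.80) were smaller. Below 0 lay 1700003P14Rik (-2.25), 4833422C13Rik (-1.96), Fam183b (-1.84), Lrit2 (-1.70), Ppp1r3c (-1.53), Lrit1 (-1.52), Efcab1 (-1.35), Nkx6-2 (-1.33), Ccna1 (-1.24), Cetn4 (-1.13), 1700007K13Rik (-1.04) and Cfap161 (-0.98).

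A single mouse lay far from the other 3 of its group in 4 of 82 groups of 4 mice looked at, where chance gives about 1 in 20. They were BALB KO mouse 3 for Gm11716 (7.15, log2), BALB WT mouse 1 for Dcpp3 (7.44), BALB WT mouse 1 for Omt2a (4.70) and BALB WT mouse 4 for Aire (9.31).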

How the results depend on the processing

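None of the 101 probe sets changed the sign of its difference under an alternative that tested it. Their choice by a large difference on the same arrays nearly fixes this. The count that passed moved, given in the order all, above 0, below 0 and at least 2-fold. It was 38, 29, 9 and 37 with the 14 BALB and B6 arrays alone, 53, 42, 11 and 49 with the filter, 489, 284, 205 and 318 with array weights, and 9, 8, 1 and 9 with a minimum of 1.5-fold. The replicate block, whose pairing did not hold for B6 pair 3 (r = -0.134), gave 766, 524, 242 and 343. With the code run as a fixed block 167 passed (139 at least 2-fold), 64 of them below 0 and 77 among the 101, and as a random block 40 were below 0. B6 WT mouse 1 had no code run and was left out of these fits by code run. Array weights and the fixed block changed the share above 0 to 58.1% and 61.7%. Of alternatives chosen after seeing the data, leaving out B6 WT mouse 2 and B6 KO mice 2 and 3 gave 17, 13, 4 and 17, averaging B6 KO mice 2 and 3 gave 37, 26, 11 and 37, and the Gapdh covariate gave 152, with 41 below 0. Leaving out each mouse in turn gave 36 to 109 in all, 24 to 79 above 0, 12 to 38 below 0 and 36 to 95 at least 2-fold, and 2387 to 5307 for the B6 effect. The count of the BALB effect became 1816 with the filter, 7787 with the replicate block, 4911 with the fixed block and 496 with the 1.5-fold minimum, and that of the B6 effect 2531, 9695 (replicate block), 808 (1.5-fold minimum), 12733 with array weights, 1245 without the 3 B6 arrays and 2524 with 2 of them averaged. The filter, which kept the brighter 50% of probe sets, tested only 55 of the 101, and 53 of these passed. Beyond this, the cause of these shifts was not tested. Dim probe sets bound the size of falls, and no detection calls were used.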

Other observations

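Because several of the genes that fell further in BALB belong to cilia, 36 other genes of the motile cilium were looked at after those values had been seen, and their counts carry no test. Of the 34 measured, 22 fell and 0 rose in BALB KO mice (median -1.20, log2) and 16 fell and 0 rose in B6 KO mice (median -0.64). Over all genes 7.48% fell and 2.89% rose in BALB, and 9.27% fell and 3.19% rose in B6. The difference was below 0 for 29 of the 34, with a median of -0.43, and passed for 0 by limma, with 11 below 0 and 0 above 0 at an unadjusted p under 0.05. Of all genes, 50.18% had a difference above 0 and 6.513% an unadjusted p under 0.05. The radial spoke genes Rsph1 and Rsph4a came nearest: Rsph1 read -3.01 in BALB and -1.70 in B6 (difference -1.31, adjusted p = 0.0566), and Rsph4a -2.16 and -0.73 (difference -1.43, adjusted p = 0.0663). Foxj1, the transcription factor of ciliated cells, read -0.88 in BALB and -0.29 in B6 (difference -0.59, adjusted p = 0.706). The median of the strain difference over these genes was -0.16 in KO mice and 0.25 in WT mice. How many ciliated cells each sort held was not tested.

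Genes of mast cells, named after their values were seen, lay on both sides. Tpsab1, a mast cell tryptase gene, fell in BALB (-1.27) and read -0.32 in B6 (difference -0.94, adjusted p = 0.0417), while Mcpt1, a mast cell protease gene, read -1.80 in BALB and -2.84 in B6 (difference 1.05, adjusted p = 0.0482). With single mice left out, Tpsab1 passed only without B6 WT 2 or BALB WT 4 (-1.07 to -0.81), and Mcpt1 passed in none of the 14 fits (0.95 to 1.13).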
